A study of Homo sapiens with 4 samples.

Results

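The genes of cholesterol synthesis, uptake and storage were measured in sorted fractions of Huh7, an established human hepatocellular carcinoma line. The list held 30 genes. A gene counted as measured where the platform annotation gave a probe exactly 1 gene symbol, and its probe with the highest mean was used. That left 28 of the 30, among 18377 genes on the array. FDFT1 (squalene synthase) had no such probe, and HSD17B7 shared its probe with the pseudogene HSD17B7P2. Each of the 28 had a single probe, and none lay below the expression floor, set at the median of the whole table (4.98), on any array. Total RNA came from CD133+ cells and CD133- cells of one flow cytometric sort, and from ALDH+ cells and ALDH- cells of another, with 1 array per fraction and 4 in all. CD133 is the surface protein encoded by PROM1, ALDH stands for aldehyde dehydrogenase, and the series sets the positive fractions as cancer stem cells against the negative ones. All fractions were of the same line. No gate, purity, passage or culture is given in the labels.

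Cells build cholesterol from acetyl-CoA through mevalonate, the isoprenoid diphosphates, squalene and a series of sterols, and the liver is a main site of this synthesis. The transcription factor SREBP-2 switches these genes on when membrane sterols run low. SCAP escorts it to the Golgi for cleavage, and INSIG proteins hold both back in the endoplasmic reticulum when sterols are plentiful. Cholesterol that enters in lipoproteins is freed in the lysosome, moved between membranes by carrier proteins, and stored as esters.

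The log2 expression values came from robust multi-array averaging, and a difference means positive minus negative within a sort, in log2 units. With 1 array per fraction there is no replicate spread, no standard error and no p-value, so every difference below describes the arrays compared. Precision is limited by the number of arrays. In such bulk RNA, fewer cells of a type and less RNA per cell cannot be told apart. PROM1 was at 9.0 in CD133+ and 5.32 in CD133- cells, and at 7.11 in ALDH+ and 8.39 in ALDH- cells. ALDH1A1, ALDH2 and ALDH1A3 differed by 0.04, 0.10 and 0.45 in the ALDH sort, so these transcripts did not check its labels. All 11 measured hepatocyte markers were above the floor on every array, among them ALB and AFP. Of the markers of other cell types, 3 of 6 for leukocytes, 4 of 8 for fibroblasts and stellate cells and 1 of 7 for endothelium were above it in the CD133 sort, and 3, 4 and 3 in the ALDH sort. LCP1, CD68 and CD14, COL1A1, COL1A2, COL3A1 and PDGFRB, and CLDN5 were above it on all 4 arrays, while PTPRC, DCN, LUM and EMCN were below it on all 4; these were named after their values were seen.

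The start regions of 5 genes are printed here as a description, and no expression difference was computed from them. SREBF2 encodes SREBP-2 itself, INSIG1 its retention factor, and STARD4, MVK and MVD had the largest differences in the CD133 sort; the last 3 were picked after their values were seen. Each window runs from 250 bases before the gene's start to 50 after it and is read 5′ to 3′ on the gene's strand, from RefSeq on build GRCh38.p14. The windows lie at chr22:41832855-41833154 (plus strand) for SREBF2, chr7:155297628-155297927 (plus strand) for INSIG1 and chr12:109573544-109573843 (plus strand) for MVK. Those of MVD and STARD4 lie at chr16:88663042-88663341 and chr5:111512486-111512785, both on the minus strand. Capitals mark the letters TCACNCCAC, the core of the sterol regulatory element that SREBP binds, and CCAAT, the box bound by NF-Y, each on either strand (CCAAT reads ATTGG on the other).
SREBF2: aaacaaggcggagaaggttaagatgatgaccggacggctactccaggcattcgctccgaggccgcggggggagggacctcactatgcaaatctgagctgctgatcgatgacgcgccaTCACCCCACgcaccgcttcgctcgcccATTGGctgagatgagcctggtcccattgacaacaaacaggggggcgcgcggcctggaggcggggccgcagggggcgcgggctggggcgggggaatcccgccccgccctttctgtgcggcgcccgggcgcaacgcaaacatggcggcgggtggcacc
INSIG1: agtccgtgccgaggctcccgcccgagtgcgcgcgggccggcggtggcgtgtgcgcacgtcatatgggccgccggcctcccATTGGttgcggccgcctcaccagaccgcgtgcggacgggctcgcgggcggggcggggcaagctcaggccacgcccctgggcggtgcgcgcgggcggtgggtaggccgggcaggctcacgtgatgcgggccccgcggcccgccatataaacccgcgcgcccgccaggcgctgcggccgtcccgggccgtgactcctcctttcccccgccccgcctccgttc
MVK: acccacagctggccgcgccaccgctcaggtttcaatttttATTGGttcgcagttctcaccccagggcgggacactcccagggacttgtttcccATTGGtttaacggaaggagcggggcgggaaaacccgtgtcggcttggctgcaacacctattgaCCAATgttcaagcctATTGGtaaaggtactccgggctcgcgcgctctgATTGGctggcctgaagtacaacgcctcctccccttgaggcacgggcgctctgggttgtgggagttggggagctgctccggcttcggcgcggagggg
MVD: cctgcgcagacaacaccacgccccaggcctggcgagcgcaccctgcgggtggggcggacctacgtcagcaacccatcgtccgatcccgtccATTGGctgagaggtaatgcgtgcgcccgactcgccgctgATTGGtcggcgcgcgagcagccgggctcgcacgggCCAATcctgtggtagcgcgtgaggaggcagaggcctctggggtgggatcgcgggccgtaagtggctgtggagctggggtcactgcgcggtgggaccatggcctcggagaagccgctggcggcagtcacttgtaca
STARD4: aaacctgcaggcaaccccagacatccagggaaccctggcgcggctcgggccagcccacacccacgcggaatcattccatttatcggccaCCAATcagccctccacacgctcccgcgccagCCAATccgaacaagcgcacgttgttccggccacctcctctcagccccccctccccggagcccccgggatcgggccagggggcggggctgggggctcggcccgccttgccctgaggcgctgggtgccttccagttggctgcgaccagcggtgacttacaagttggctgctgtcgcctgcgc

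TCACCCCAC, a stricter form contained in TCACNCCAC, stood in the SREBF2 window 133 bases before the start, followed by ATTGG at 106 bases. MVK held 5 CCAAT boxes, MVD 3, STARD4 2 and INSIG1 1. Among windows not printed, NSDHL held 5, MSMO1 4, and EBP, FDPS, IDI1 and LIPA up to 3 each. Windows were found for 24 of the 28 measured genes; ACAT2, SQLE, SCARB1 and SOAT2 had none in the table. Some genes have several windows, which can overlap. SREBF2 was the 1 gene of the 24 with either form of the sterol element core, against 0.60% of 15842 protein-coding genes for TCACCCCAC and 1.51% for TCACNCCAC. CCAAT stood in the windows of 12 of 14 synthesis enzymes and of 7 of the 10 other genes, against 42.1% of all protein-coding genes. The GC box GGGCGG, on either strand, stood in 13 of the 14 enzymes and 9 of the 10 others, against 64.3% of all, and the E-box CACGTG in 2 and 2, against 10.9%. These are letter matches in a short window, not binding sites, and a missing match speaks only of these letters in this window.

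In the CD133 sort, all 16 measured enzymes of cholesterol synthesis were lower in CD133+ cells, with differences between -0.61 and -0.12 and a median of -0.28. Mevalonate kinase MVK was 1.53-fold lower, mevalonate diphosphate decarboxylase MVD 1.42-fold and the last reductase DHCR7 1.33-fold. The 12 genes of sterol sensing, uptake and storage were mixed, with 8 lower, 4 higher and a median of -0.11. Among them the sterol carrier STARD4 was 1.53-fold lower and INSIG1 1.38-fold lower. Over all 28 genes, 24 were lower and 4 higher in CD133+ cells, while 57.1% of the 11591 genes above the floor in this sort were lower and 42.9% higher. The median of the 28 was -0.25, beside -0.04 over the genes above the floor. Bright genes lay slightly lower than dim ones here: of 6988 genes with a mean level in the range spanned by the 28, from 6.12 to 10.14, 61.2% were lower, with a median of -0.06.

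**Figure D1:**
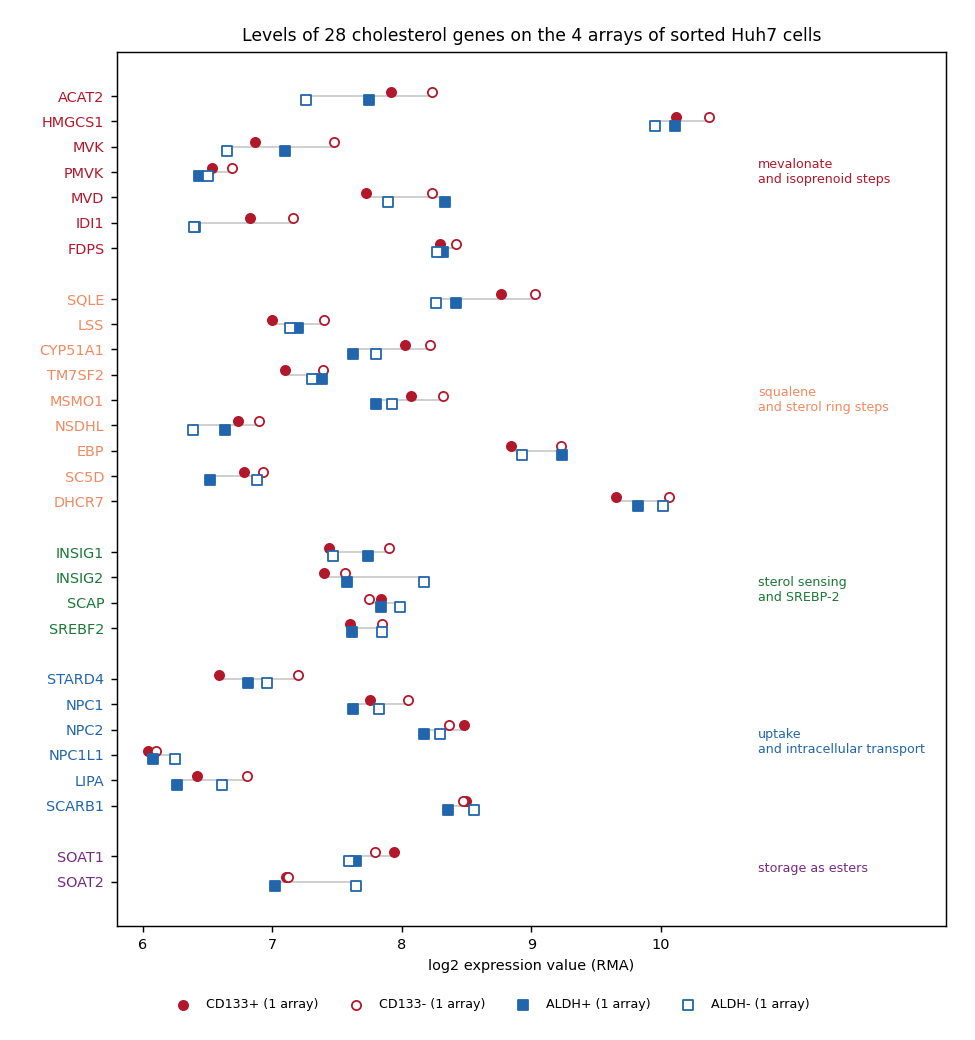
Levels of the 28 genes on the 4 arrays (x axis, log2 expression value; 1 row per gene, coloured by role, with a grey line over the range of its arrays). Filled symbols are positive and open symbols negative fractions, circles the CD133 sort and squares the ALDH sort, each 1 array. The open circle of CD133- cells lies furthest right for 14 of the 16 enzymes, all 16 of which were lower in CD133+ cells.

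A threshold of 0.32 log2 units was used for counts of single genes. By this much or more, 9 of the 28 genes were lower and 0 higher in CD133+ cells. Of the genes above the floor 12.1% were at least that much lower and 9.68% that much higher; in the range of mean level spanned by the 28, 10.1% were that much lower. The 9 were the enzymes MVK, MVD, IDI1, LSS, EBP and DHCR7, with INSIG1, STARD4 and the lysosomal lipase LIPA. IDI1 was short of the threshold after centring (-0.29), a second quantile normalization (-0.27) and cyclic loess (-0.27), and LIPA just short after the second quantile normalization. At 1.5-fold, STARD4 and MVK remained, against 1.89% of genes above the floor, and none of the 28 reached 2-fold, which 0.164% of genes did as lower and 0.716% as higher. STARD4 stood at percentile 1.54 and MVK at percentile 1.58 of all differences above the floor in this sort.

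The mevalonate steps come first in the pathway. ACAT2, the cytosolic thiolase that joins acetyl-CoA units, was at 7.92 in CD133+ and 8.23 in CD133- cells, and at 7.74 in ALDH+ and 7.26 in ALDH- cells. Its differences were -0.31 and 0.48. HMGCS1, the cytosolic synthase of the next step, was at 10.12 in CD133+ and 10.38 in CD133- cells, against 10.11 in ALDH+ and 9.95 in ALDH- cells. Both genes were highest in CD133- and lowest in ALDH- cells.

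MVK, which phosphorylates mevalonate, was at 6.86 in CD133+ and 7.47 in CD133- cells, and at 7.10 in ALDH+ and 6.65 in ALDH- cells. It was thus 1.53-fold lower in CD133+ and 1.36-fold higher in ALDH+ cells. MVD, which decarboxylates the diphosphate to isopentenyl diphosphate, was at 7.73 in CD133+ and 8.23 in CD133- cells, and at 8.33 in ALDH+ and 7.90 in ALDH- cells. Its value was 1.42-fold lower in CD133+ and 1.35-fold higher in ALDH+ cells. These 2 genes passed 0.32 downwards in CD133+ cells and upwards in ALDH+ cells; after a second quantile normalization or cyclic loess EBP and INSIG1 did so too, which made 4. As deposited, so did 1.66% of the 11293 genes that both sorts placed above the floor. That share was not computed after the normalizations, so the 4 have no like comparison.

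PMVK, the kinase between MVK and MVD, differed little, at -0.15 (CD133 sort) and -0.06 (ALDH sort). The isomerase IDI1 was at 6.82 in CD133+ and 7.16 in CD133- cells, and at 6.40 in both ALDH fractions. It was therefore 1.26-fold lower in CD133+ cells, with no difference to speak of in the ALDH sort (0.005). FDPS, which makes farnesyl diphosphate for sterols and for protein prenylation, differed by -0.12 and 0.05. Other probes of FDPS are shared with the pseudogene FDPSP2 and were not used, and its value is uncertain because such copies can share signal. As a group, 7 of 7 mevalonate and isoprenoid genes were lower in CD133+ cells and 6 of 7 higher in ALDH+ cells, with medians of -0.31 and 0.15. The shares over genes above the floor were 57.1% and 48.5%.

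The squalene and sterol ring steps follow. SQLE, the epoxidase that oxidises squalene, was at 8.77 in CD133+ and 9.03 in CD133- cells, and at 8.42 in ALDH+ and 8.26 in ALDH- cells. LSS, which closes the ring to lanosterol, was at 7.0 in CD133+ and 7.40 in CD133- cells, against 7.19 in ALDH+ and 7.14 in ALDH- cells. SQLE was higher on both CD133-sort arrays than on both ALDH-sort arrays, whereas for LSS both ALDH fractions lay between the CD133 fractions.

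The sterol isomerase EBP was at 8.85 in CD133+ and 9.23 in CD133- cells, and at 9.24 in ALDH+ and 8.93 in ALDH- cells. It was 1.30-fold lower in CD133+ and 1.24-fold higher in ALDH+ cells. DHCR7, the reductase whose product is cholesterol itself, was at 9.66 in CD133+ and 10.06 in CD133- cells, and at 9.82 in ALDH+ and 10.02 in ALDH- cells. Unlike EBP it was lower in the positive fraction of both sorts, with differences of -0.41 and -0.20.

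SC5D, the desaturase just before DHCR7, was at 6.78 in CD133+ and 6.93 in CD133- cells, and at 6.52 in ALDH+ and 6.88 in ALDH- cells. It was the 1 enzyme of the 16 past 0.32 on the lower side in ALDH+ cells (1.29-fold), and after cyclic loess that difference was -0.30, just short of it. The lanosterol demethylase CYP51A1 (-0.19 and -0.18) and the methylsterol oxidase MSMO1 (-0.25 and -0.12) were also lower in the positive fraction of both sorts. The sterol reductase TM7SF2 (-0.29 and 0.08) and the dehydrogenase NSDHL (-0.16 and 0.25) had opposite signs in the CD133 and ALDH sorts. In all, 9 of 9 of these genes were lower in CD133+ cells, beside 57.1% of genes above the floor. In ALDH+ cells 5 of 9 were higher, near the 48.5% of genes. The medians were -0.26 and 0.06.

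**Figure D2:**
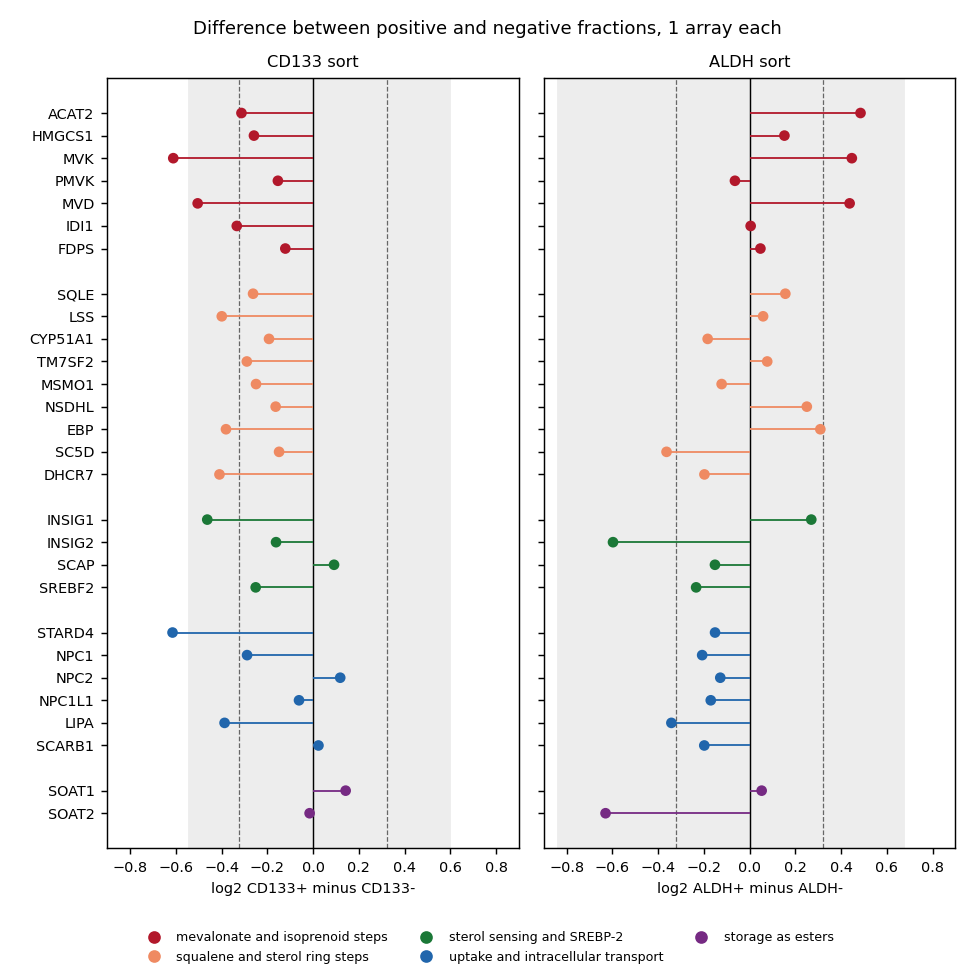
Difference of each gene between the positive and the negative fraction (x axis, log2 units) in the CD133 sort (left) and the ALDH sort (right), 1 array per fraction, coloured by role. Dashed lines mark 0.32 log2 units either way and the grey band the middle 95% of genes above the floor, which is wider in the ALDH sort. All 16 enzymes lie left of 0 in the CD133 sort, and 11 of them lie right of 0 in the ALDH sort.

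The genes of sterol sensing had mixed signs. INSIG1, itself a known target of SREBP-2, was at 7.44 in CD133+ and 7.90 in CD133- cells, and at 7.74 in ALDH+ and 7.47 in ALDH- cells. Its paralog INSIG2 was at 7.40 in CD133+ and 7.56 in CD133- cells, and at 7.57 in ALDH+ and 8.17 in ALDH- cells. INSIG1 thus had the signs of the enzymes MVK and MVD (-0.46 and 0.27), while INSIG2 was 1.51-fold lower in ALDH+ cells and stood out for its high value in ALDH- cells.

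SREBF2, the gene of SREBP-2, was at 7.60 in CD133+ and 7.85 in CD133- cells, and at 7.61 in ALDH+ and 7.85 in ALDH- cells. Its values were close between the positive fractions and close between the negative ones, with differences of -0.25 and -0.23. SCAP, the escort, differed by 0.09 between the CD133 fractions and by -0.15 between the ALDH fractions. Of these 4 genes, 3 were lower in CD133+ and 3 lower in ALDH+ cells, beside 57.1% and 51.5% of genes above the floor.

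The genes of uptake and transport were lower in ALDH+ cells, 6 of 6 beside 51.5% of 11879 genes above the floor, with differences between -0.34 and -0.13 and a median of -0.18. STARD4, a soluble carrier that moves cholesterol between membranes, was at 6.59 in CD133+ and 7.20 in CD133- cells, and at 6.81 in ALDH+ and 6.96 in ALDH- cells. LIPA, the acid lipase that frees cholesterol from lipoprotein esters in the lysosome, was at 6.42 in CD133+ and 6.81 in CD133- cells, and at 6.27 in ALDH+ and 6.61 in ALDH- cells. LIPA was the 1 gene of the 28 lower by 0.32 or more in the positive fraction of both sorts, as were 2.72% of genes above the floor in both; after cyclic loess its ALDH difference was -0.28, and after a second quantile normalization both differences were just short of that.

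NPC1 and NPC2 pass cholesterol out of the lysosome together, NPC2 as a soluble carrier and NPC1 in the membrane. NPC1 was lower in CD133+ cells (-0.29) and NPC2 was higher (0.12), while both were lower in ALDH+ cells (-0.21 and -0.13). SCARB1, the receptor for high-density lipoprotein, differed by 0.02 and -0.20, and NPC1L1, the sterol importer of gut and liver, by -0.06 and -0.17. None of these 4 genes reached 0.32 in either sort.

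The 2 esterifying enzymes differed from each other in the ALDH sort. SOAT2, the form of hepatocytes and enterocytes, was at 7.11 in CD133+ and 7.12 in CD133- cells, and at 7.02 in ALDH+ and 7.65 in ALDH- cells. SOAT1, the widely expressed form, was at 7.94 in CD133+ and 7.79 in CD133- cells, against 7.65 in ALDH+ and 7.59 in ALDH- cells. SOAT2 was 1.55-fold lower in ALDH+ cells, the largest difference of the 28 in that sort and at percentile 5.59 of genes above the floor, while its other 3 arrays lay between 7.02 and 7.12. SOAT1 was the 1 gene of the 28 higher in the positive fraction of both sorts, at 0.14 and 0.05.

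In the ALDH sort the enzymes had a median just above 0 and the other genes a median below 0. Of the 16 synthesis enzymes 11 were higher in ALDH+ cells, with a median of 0.07, and of the 12 other genes 10 were lower, with a median of -0.18. Over all 28, 15 were lower and 13 higher, close to the 51.5% lower and 48.5% higher of 11879 genes above the floor, and the median was -0.09 beside -0.01. By 0.32 or more, ACAT2, MVK and MVD were higher and SC5D, INSIG2, LIPA and SOAT2 lower. This 3 higher and 4 lower is near the shares over genes above the floor, 15.7% and 19.4%. The split depended on the scaling, with 6 higher and 3 lower after a second quantile normalization, and 5 higher and 2 lower after cyclic loess. The shares over all genes are for the values as deposited and were not computed after these normalizations. At 1.5-fold INSIG2 and SOAT2 were lower and 0 genes higher, beside 6.6% and 4.15% of genes above the floor, and none of the 28 reached 2-fold, beside 1.3% lower and 0.278% higher.

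The sorts share no array, so their signs can be set side by side. Of the 16 enzymes 11 were lower in CD133+ and higher in ALDH+ cells, counting IDI1 at 0.005, while 26.6% of genes that passed the floor in each sort had these signs. As all 16 were lower in CD133+ cells, this count only repeats the 11 higher in ALDH+ cells. Among genes lower in CD133+ cells and above the floor in each sort, 3009 were higher and 3432 lower in ALDH+ cells. The other 5 enzymes (PMVK, CYP51A1, MSMO1, SC5D and DHCR7) were lower in the positive fraction of both. Of the 12 other genes, 7 were lower in both. SCAP, NPC2 and SCARB1, 3 in all, were higher in CD133+ and lower in ALDH+ cells (21.9% of genes), INSIG1 the reverse, and SOAT1 higher in both (21.1%). Over all 28 genes 12 were lower in both, beside 30.4% of genes above the floor. Across the 28 genes the paired differences had a Pearson r of -0.42, beside -0.12 across the 11293 genes above the floor in both; genes on the same 4 arrays are not independent replicates.

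**Figure D3:**
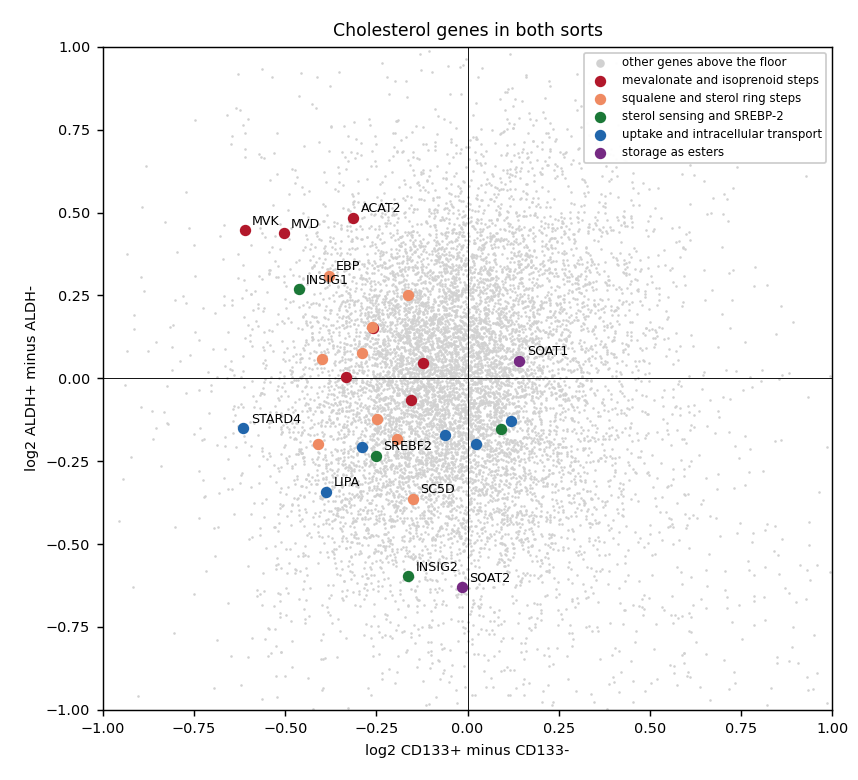
Each of the 28 genes by its difference in the CD133 sort (x axis, log2 units) and in the ALDH sort (y axis, log2 units), coloured by role, over the other genes above the floor as grey points; genes beyond 1 log2 unit fall outside the axes. MVK, MVD and ACAT2 lie at the upper left, and INSIG2 and SOAT2 lie lowest, near the vertical axis.

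By array, CD133- cells had the highest value of the 4 for 14 of the 16 enzymes (the exceptions were MVD and EBP, highest in ALDH+ cells) and for 5 of the 12 other genes. Among genes that passed the floor in each sort, 36.4% were highest in CD133- and 21.7% in ALDH+ cells. As all 16 enzymes were lower in CD133+ cells, the count of 14 partly repeats that result. The 36.4% covers genes of either sign and is not a like comparison. ALDH- cells had the lowest value for 7 of the 16 enzymes but for 1 of the 12 others, and the highest for 0 and 5. The ALDH- array was lowest and highest for 29.6% and 24.2% of genes. Only a gene higher in ALDH+ cells can be lowest in ALDH- cells, and only a gene lower there can be highest. These counts thus partly repeat the 11 enzymes higher and the 10 other genes lower in ALDH+ cells. The shares over all genes are not a like comparison for them. Both CD133-sort arrays lay above both ALDH-sort arrays for 10 of the 28 genes, beside 31.1% of genes above the floor. These 10 were 8 of the 16 enzymes and 2 of the 12 others. The reverse held for 1 gene of the 28 (14% of genes). The marker and whatever else separated the sorts cannot be told apart in such comparisons across sorts.

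Hepatocyte transcripts, like the enzymes, were mostly lower in CD133+ cells. Of 11 hepatocyte markers 9 were lower in CD133+ cells, beside 57.1% of genes above the floor, with a median of -0.38, from AHSG (-1.58), the gene of fetuin, to TTR at 0.99, the gene of transthyretin. In the ALDH sort 6 of the 11 were higher, near the 48.5% of genes, and the median was 0.06. The part of this shift in the values of the cholesterol genes was not tested.

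Neighbouring pathways were described by lists written beside the 28 genes. Fatty acid synthesis, which the related factor SREBP-1 drives, was also mostly lower in CD133+ cells: 14 of 15 genes lay below 0, with a median of -0.29, and 7 were lower by 0.32 or more and 1 higher by as much. The shares over genes above the floor were 57.1% below 0, 12.1% lower by that much and 9.68% higher by it. GPAM, which starts triglyceride assembly, differed by -0.94 and the acyl-CoA ligase ACSL4 by -0.67. In the ALDH sort 8 of the 15 were lower, near the 51.5% of genes above the floor, and the median was -0.02, with the acetyl-CoA synthetase ACSS2 at -0.61. SREBF1, the gene of SREBP-1, was at 7.09 in CD133+ and 7.42 in CD133- cells, and at 7.39 in ALDH+ and 7.10 in ALDH- cells. Its signs were those of MVK and MVD, and its sister SREBF2 differed from it in the ALDH sort.

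Of 10 genes of SREBP processing and turnover, 7 were lower in CD133+ cells (median -0.16) and 4 in ALDH+ cells (median 0.01), beside 57.1% and 51.5% of genes above the floor. FBXW7, a ubiquitin ligase subunit that marks nuclear SREBP for breakdown, differed by -0.32 and -0.51, and the protease MBTPS2, which releases SREBP from the membrane, by -0.31 and -0.13. Of 4 further sterol genes 3 were lower in CD133+ cells, among them LBR, a nuclear envelope protein that also reduces sterols (-0.36 and 0.26), TMEM97 (-0.13 and 0.11) and FAXDC2 (-0.34 and -0.58). The branches that use isoprenoids for other ends showed no such lean in the CD133 sort, with 6 of 11 lower in CD133+ cells, near the 57.1% of genes, and a median of -0.06. Lower in ALDH+ cells were 8 of the 11, with a median of -0.12, beside 51.5% of genes. In that list RABGGTB, a subunit of the enzyme that prenylates Rab proteins, differed by -0.55 and -0.23, PDSS2, of coenzyme Q synthesis, by -0.46 and -0.19, and GGPS1, which makes geranylgeranyl diphosphate, by 0.18 and -0.59.

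A list of the sterol receptor LXR, its targets and efflux genes was lower in ALDH+ cells, 7 of 7 with a median of -0.31. The share over genes above the floor was 51.5%. Within it ABCA1 (-0.01) and MYLIP (-0.05) hardly differed in the ALDH sort. In CD133+ cells 4 of 7 were lower, near the 57.1% of genes, with a median of -0.04. One of the 7, ABCG1, lay below the floor on all 4 arrays, and its ALDH difference is the median of -0.31. Over the 6 above the floor the ALDH median was -0.35. The sterol exporter subunit ABCG5 was 1.60-fold lower in ALDH+ cells, LPCAT3, a phospholipid-remodelling target of the sterol receptor LXR, differed by -0.50 there, and NR1H3, which encodes LXR-alpha, by -0.42. Of 18 other sterol carrier and uptake genes, 11 were lower in ALDH+ cells with a median of -0.20, and 9 were lower in CD133+ cells with a median of 0.00, beside 51.5% and 57.1% of genes above the floor. In each sort 13 of the 18 were above the floor, with a median of -0.29 in the ALDH sort. The sorting receptor SORL1 (-0.84), the phospholipid transfer protein PLTP (-0.53) and the carboxylesterase CES1 (-0.50) had the largest differences among these in the ALDH sort, and differed by -0.10, 0.01 and 0.15 in the CD133 sort.

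**Figure D4:**
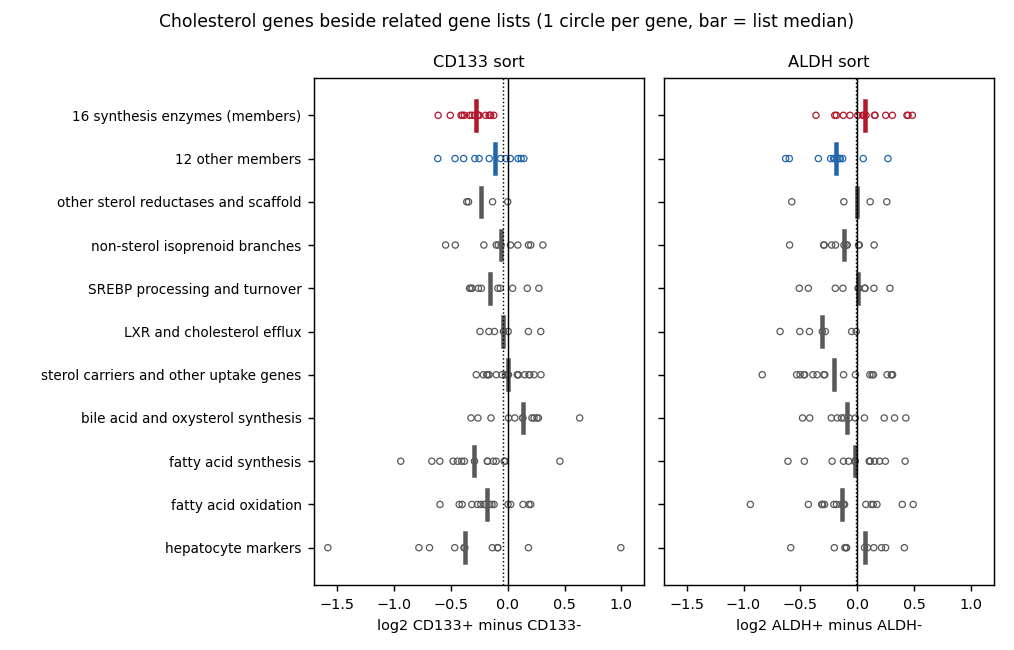
Differences in the CD133 sort (left) and the ALDH sort (right) in log2 units, with 1 circle per measured gene and a bar at the median of each list; the solid line marks 0 and the dotted line the median of genes above the floor. The enzymes, fatty acid synthesis and hepatocyte markers have medians of -0.28, -0.29 and -0.38 in the CD133 sort. The list of LXR and efflux genes has the lowest median in the ALDH sort (-0.31).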

How the data were processed

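The authors deposited 1 table of log2 expression values, made with RMA per the submitters' processing notes. Values ran from 0.556 to 13.5, which set the scale as log2. The software version, annotation and build are not given in the sources used here. RMA pulls arrays towards a common distribution, so a change common to most genes is hidden, and differences of dim probes are compressed. Of 28869 probes, 19310 had exactly 1 symbol in the platform annotation, 1752 had several and 7807 were not listed there. The positive minus negative difference was computed per sort, with no test. Genes were counted at 0.32 log2 units among those whose brighter array reached the floor. Described are all measured genes of the list, up to 3 genes above the floor with the largest difference per neighbouring list, and the sort and hepatocyte markers. ABCG1, ABCA1 and MYLIP are named besides, after their values were seen. The genes, lists and thresholds were chosen with earlier results of these data known. The difference and count functions were tested on simulated arrays without noise, which checks their arithmetic and not the floor, probe choice or normalization. Alternatives were other probe rules, centring, a second quantile normalization, cyclic loess with a span of 0.4, floors and folds. Python 3.11.15, pandas 2.3.3, R 4.3.3 and limma 3.58.1 were used.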

Additional observations from a re-analysis of the deposited data

Results flagged for a closer look

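MVK and MVD differed by more than 0.32 log2 units in both sorts and in opposite directions. MVK was lower in CD133+ cells (-0.61) and higher in ALDH+ cells (0.45), so its CD133 difference minus its ALDH difference was -1.06. For MVD the differences were -0.50 and 0.44, and the first minus the second was -0.94. As deposited, 1.66% of genes above the floor in both sorts differed in this opposed way. After a second quantile normalization or cyclic loess, EBP and INSIG1 passed 0.32 in the same opposed way, which made 4 genes. The share over all genes was not computed after those normalizations. With 1 array per fraction the difference between the sorts was not tested.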

How the results depend on the processing

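Each group held 1 array, so no array could be left out within a group, and a move of a median by up to 0.1 log2 units was taken as no change. No paired analysis was possible because each group held 1 array with no replicate number. Over the probe rules, centring, second quantile normalization, cyclic loess and floors, the median of the 28 genes lay between -0.26 and -0.21 in the CD133 sort and between -0.09 and -0.03 in the ALDH sort. Each of the 28 had 1 probe, and none lay below the median of the whole table. The probe rules and the floors at that median therefore could not change any value of these genes. Only centring, the normalizations and a floor at the 75th percentile could change their results. In the CD133 sort 23 to 24 genes were lower and 7 to 9 were lower by 0.32 or more, and under the probe rules, centring and both normalizations all 16 enzymes were lower. In the ALDH sort 3 genes were higher by that much, but 6 after a second quantile normalization and 5 after cyclic loess, and 4 were lower, but 2 after cyclic loess; the genes past 0.32 in opposite directions were 2, but 4 after either normalization; among the enzymes 3 were higher, but 5 after the second quantile normalization. At 1.5-fold, 2 genes were lower in the CD133 sort, 2 lower in the ALDH sort and 0 higher there; at 2-fold all these counts were 0. The alternatives for the enzymes and other genes as groups, the neighbouring lists and the opposed counts were added after seeing the data. Shares over all genes were not computed after either normalization. No gene of the 28 moved by more than 0.088 under centring or either normalization, and no difference past 0.32 changed its sign.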

Other observations

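Bile acid and oxysterol synthesis, a main outlet of liver cholesterol, was mostly higher in CD133+ cells: 9 of 12 genes had a positive difference, with a median of 0.13, beside 42.9% of all genes above the floor. Only 5 of the 12 were above the floor in that sort, so most of these values are of dim probes and that share is not a like comparison. The CD133 median over all 18377 genes was -0.01, beside -0.04 over those above the floor. In ALDH+ cells 8 of the 12 were lower, with a median of -0.09, beside 51.5% of genes above the floor. ACOX2, a peroxisomal oxidase of bile acid side chains, and CYP39A1, an oxysterol hydroxylase, both differed by 0.13 in the CD133 sort. Their differences in the ALDH sort were -0.42 and -0.48. CYP46A1, a cholesterol hydroxylase best known from brain, had the opposite signs, at -0.26 and 0.24, with 2 of its 4 arrays below the floor.

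Of 16 genes of fatty acid oxidation, 11 were lower in CD133+ cells with a median of -0.18, and 10 were lower in ALDH+ cells with a median of -0.13. Over genes above the floor the shares were 57.1% and 51.5%. CPT1A, which brings fatty acids into mitochondria, differed by -0.60 and -0.21. ETFDH, which passes electrons from fatty acid oxidation to the respiratory chain, was at 5.44 in CD133+ and 5.84 in CD133- cells, and at 5.06 in ALDH+ and 6.0 in ALDH- cells. HADH, a dehydrogenase of the same pathway, differed by -0.21 and 0.49.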
